A study of Mus musculus with 6 samples.

Results

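The Klf genes encode Krüppel-like factors, transcription factors that bind GC-rich and CACCC-containing DNA through C2H2 zinc fingers at their carboxyl end. The zinc fingers are alike across the family, and the members differ mainly in the rest of the protein, which recruits coactivators or corepressors. The proteins of Klf3, Klf8 and Klf12 bind the corepressor CtBP. Klf6 and Klf7 belong, with Klf1, Klf2, Klf4 and Klf5, to a branch known mainly as activators. Those of Klf9, Klf10, Klf11, Klf13, Klf14 and Klf16 bind the Sin3 corepressor, and Klf15 and Klf17 lie outside these branches.

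Of the family, 10 named genes were taken: Klf3, Klf6, Klf7, Klf9, Klf10, Klf11, Klf12, Klf13, Klf15 and Klf16. All 10 had a row among the 22432 of the authors' deposited table, matched by Ensembl identifier to GENCODE M21. RNA was sequenced as bulk total RNA from 3 CDH1+/THY1+ and 3 CDH1-/THY1+ samples of male mouse germline stem cells, cultured cells that can maintain spermatogenesis. CDH1 is E-cadherin, an adhesion protein, and THY1 is a surface glycoprotein carried by both populations. Each population was represented by cultures RP7 (8 weeks), RP5 (19 days) and WT1 (5 weeks), at passage 6 to 8. RP7 and RP5 carry a strain label that joins OCT4/GFP and Dox-OCT4, and WT1 carries the label C57BL/6. All 6 samples had been grown on DR4 mouse embryonic fibroblasts with GDNF and FGF, so feeder RNA may be in the samples. The labels do not say whether doxycycline was given, or whether each culture came from 1 animal. The table holds only the authors' comparison, with no value for a single library, so depth per sample, spread within a population and agreement between cultures are unknown. Which population is on top of the fold change (CDH1+/THY1+) comes from the table's name, and Cdh1 itself was not analysed here. In bulk RNA, fewer cells of a type and less RNA per cell cannot be told apart.

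Of the 10 Klf genes, 8 were called at an adjusted p under 0.05 per the authors' deposited table, 5 higher and 3 lower in CDH1+/THY1+ cells. The share called over all 19211 rows with an adjusted p was 33.5%, with 17.1% higher and 16.4% lower. Among the 12335 such rows with a mean normalised count of at least 50, a range that holds all 10 Klf genes, 44.1% were called. Klf3, Klf6, Klf9, Klf12 and Klf15 were higher, and Klf7, Klf10 and Klf11 were lower. Klf13 and Klf16 were not called. The median log2 fold change of the 10 was 0.37, against 0.01 over all rows with an adjusted p. A value written with ± below is a log2 fold change per the authors' deposited table with its standard error.

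**Figure D1:**
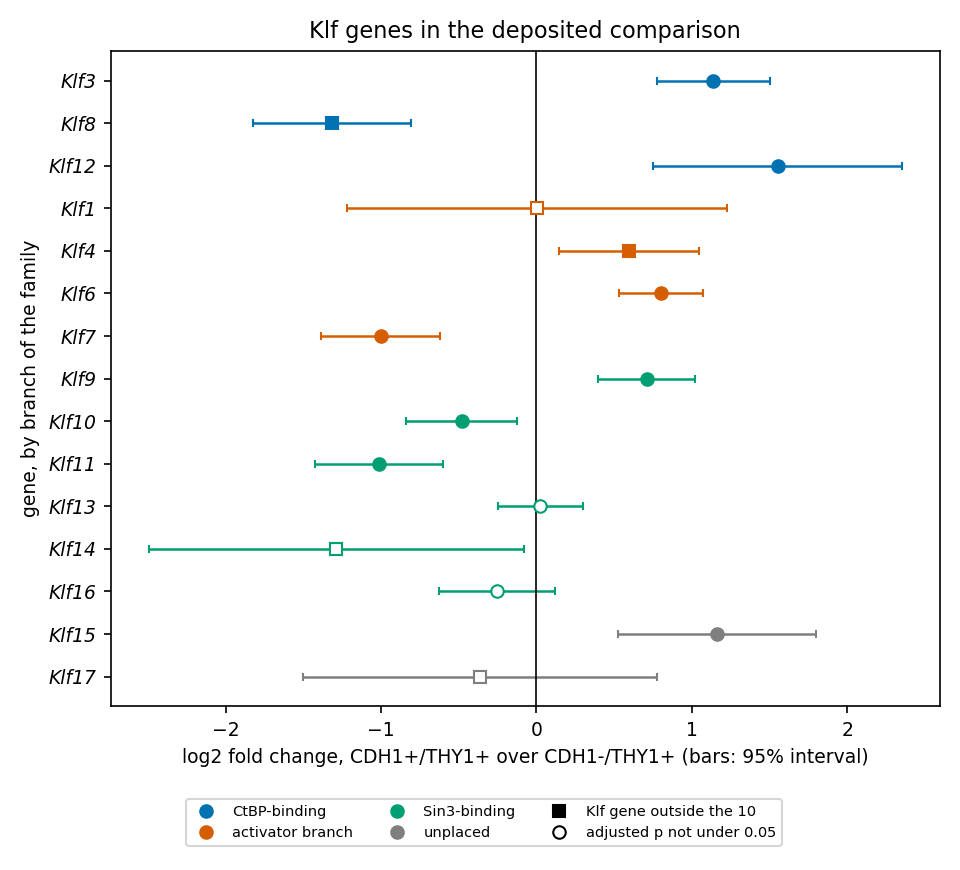
Change of 15 Klf genes in CDH1+/THY1+ against CDH1-/THY1+ cells, as log2 fold change, on the horizontal axis, with genes ordered by branch down the vertical axis. Points are the authors' values, bars are 95% intervals from their standard errors, and open symbols were not called; each branch with more than 1 called gene has genes on both sides of 0.

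The Klf genes differed widely in level. A level per length was taken as the mean normalised count over all 6 libraries divided by the length of the gene's merged exons. Klf10 stood highest at 562 normalised counts per kb, followed by Klf6 at 428, Klf9 at 282 and Klf11 at 264. Klf16 had 180.2, Klf13 119.7, Klf7 61.6, Klf3 59.4 and Klf15 42.0 normalised counts per kb. Klf12 was the lowest at 7.41, a 75.8-fold span below Klf10. The spread of these levels over libraries is not known, so neighbours in the order, such as Klf9 and Klf11 or Klf7 and Klf3, were not shown to differ. Klf3 moves above Klf7 when the longest transcript is used as length (128 against 65.4 normalised counts per kb).

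A level in each population can be worked out from the mean count and the fold change, taking the mean as that of 2 groups of equal size. These implied levels rest on the authors' fold change, which may be shrunken towards 0, and are no independent measurement. Summed over the 15 Klf genes with a row, they came to 11227 normalised counts in CDH1+/THY1+ cells and 11502 in CDH1-/THY1+ cells. The summed level of these 15 was thus close between the populations while single genes moved in both directions. Klf2 and Klf5 were not analysed here and are not in the sums, so the level of the whole family is not known.

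**Figure D2:**
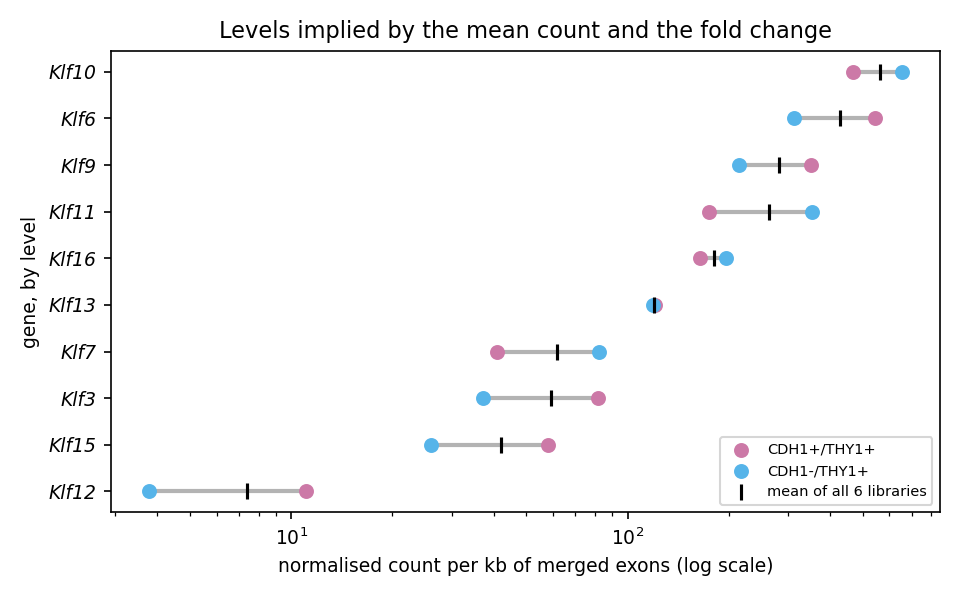
Implied normalised count per kb of merged exons (log scale) of the 10 Klf genes in CDH1+/THY1+ and CDH1-/THY1+ cells, ordered by level, with a tick at the mean of all 6 libraries. Klf10 and Klf6 have the highest means, 562 and 428, and Klf12 the lowest, 7.41.

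The CtBP-binding branch moved apart, with Klf3 and Klf12 higher and Klf8 lower in CDH1+/THY1+ cells. Klf3, a repressor studied in red blood cell and fat cell development of the mouse, lies on chromosome 5 (64803388 to 64832901 in GRCm38, forward strand). Its implied levels were 918 normalised counts in CDH1+/THY1+ cells and 417 in CDH1-/THY1+ cells. That is a 2.20-fold higher level (95% interval 1.71 to 2.83), with 1.14 ± 0.19 and an adjusted p of 2.04e-08 by DESeq2 per the authors' deposited table. Klf12, first described as a repressor of the AP-2 alpha gene, lies on chromosome 14 (99870632 to 100284679, reverse strand). Implied levels of Klf12 were 77.2 in CDH1+/THY1+ cells and 26.3 in CDH1-/THY1+ cells. Klf12 had 1.55 ± 0.41 (adjusted p = 0.000856, per the authors' deposited table), 2.93-fold with a 95% interval of 1.68 to 5.11. Of all rows with an adjusted p analysed here, 5.47% had a larger change in either direction than Klf12 and 13.7% a larger one than Klf3. This base leaves out 532 tests not analysed here, all of them called, so both shares may be too low.

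Klf8, the X-linked member of that branch, is not among the 10 but has a row. In the authors' deposited table it stood at -1.31 ± 0.26 (adjusted p = 4.36e-06), which is 2.49-fold lower (95% interval 1.75 to 3.53). Implied levels of Klf8 were 637 in CDH1+/THY1+ cells and 1585 in CDH1-/THY1+ cells. In mouse erythroid cells Klf8 is a known target that KLF3 represses. The standard error of Klf8 exceeded that of 94.5% of the 200 genes nearest in mean count.

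The promoter windows of these 3 genes are shown because they carry the letters that Klf proteins are known to bind. They are RefSeq windows on GRCm38.p6, 250 bases before to 50 after a transcript start, 5′ to 3′ on the gene's strand, with each CACCC or GGGTG (the same box on the other strand) in capitals. Klf3 is at chr5:64803271-64803570 (forward), Klf12 at chr14:100149747-100150046 (reverse), and Klf8 has 2 starts, at chrX:153237498-153237797 and chrX:153359363-153359662 (forward).
Klf3: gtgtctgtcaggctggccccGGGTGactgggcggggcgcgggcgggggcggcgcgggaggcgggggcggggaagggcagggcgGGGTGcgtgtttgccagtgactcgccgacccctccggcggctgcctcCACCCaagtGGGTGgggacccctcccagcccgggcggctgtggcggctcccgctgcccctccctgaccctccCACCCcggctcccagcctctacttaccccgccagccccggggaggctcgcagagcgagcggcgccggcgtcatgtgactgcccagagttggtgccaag
Klf12: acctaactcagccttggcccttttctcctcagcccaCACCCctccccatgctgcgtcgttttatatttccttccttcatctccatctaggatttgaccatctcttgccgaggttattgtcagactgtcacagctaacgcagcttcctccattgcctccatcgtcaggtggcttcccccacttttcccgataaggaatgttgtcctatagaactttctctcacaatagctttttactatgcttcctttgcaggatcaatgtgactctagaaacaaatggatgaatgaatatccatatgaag
Klf8 start 1: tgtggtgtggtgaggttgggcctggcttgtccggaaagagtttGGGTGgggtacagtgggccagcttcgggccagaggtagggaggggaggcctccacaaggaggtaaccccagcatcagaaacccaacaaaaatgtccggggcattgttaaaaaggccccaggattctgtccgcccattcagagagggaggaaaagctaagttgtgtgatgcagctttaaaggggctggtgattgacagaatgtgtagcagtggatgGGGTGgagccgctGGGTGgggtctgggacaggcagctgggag
Klf8 start 2: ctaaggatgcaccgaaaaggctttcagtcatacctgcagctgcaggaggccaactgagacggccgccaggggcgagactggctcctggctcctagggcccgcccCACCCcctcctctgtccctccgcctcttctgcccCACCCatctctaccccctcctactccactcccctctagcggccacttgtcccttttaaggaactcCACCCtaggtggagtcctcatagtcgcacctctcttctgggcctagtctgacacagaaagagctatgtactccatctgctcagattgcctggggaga
The Klf3 window held 5 CACCC boxes on both strands together, each Klf8 window 3, and the Klf12 window 1. Outside this branch, the Klf7 window held 3, those of Klf9, Klf13 and Klf15 1 each, and those of Klf6 and Klf11 0. The box was thus not particular to the CtBP-binding branch. Of 32817 RefSeq windows of this length, 57.5% held at least 1 such box, 9.35% at least 3 and 1.02% at least 5. One of the Klf3 boxes overlapped a GC box (GGGCGG or CCGCCC), of which that window held 6. Of all windows, 2.71% held at least 5 GC boxes. G and C made up 76.7% of the Klf3 window, 45.7% of the Klf12 window, and 57.3% and 60% of the Klf8 windows. The shares over all windows were not matched for this content. The Klf12 window and both Klf8 windows lie wholly inside the span that GENCODE M21 gives the gene. These matches are letters in a window, and no binding was measured.

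**Figure D3:**
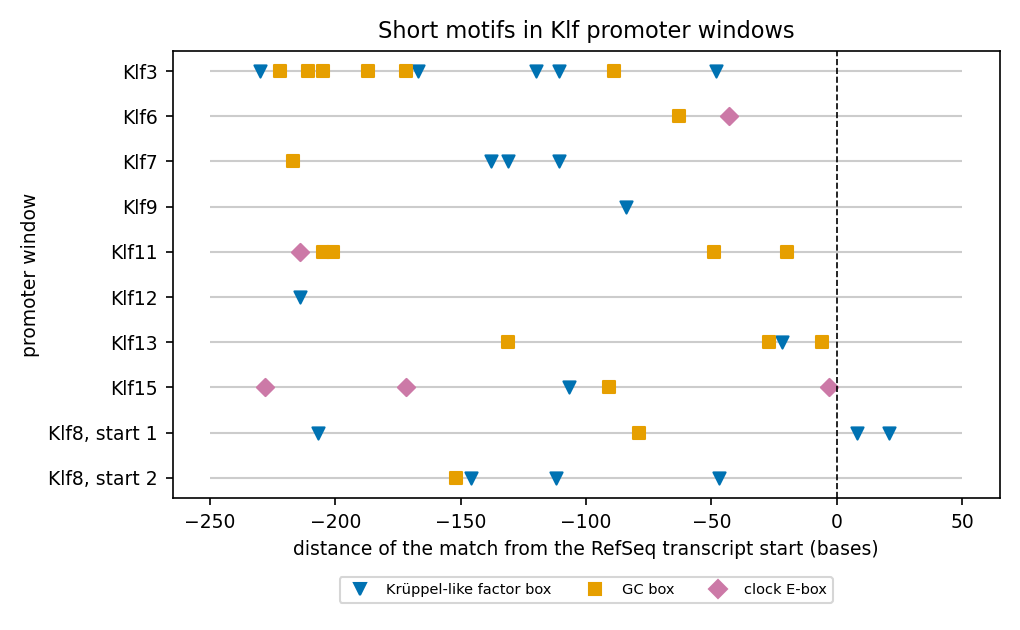
Position of 3 short motifs in the promoter windows of 8 Klf members and at both starts of Klf8, in bases from the RefSeq transcript start (dashed line). The Krüppel-like factor box is the CACCC box; Klf3 has 5 of them, Klf8 has 3 at each start, and Klf15 has 3 clock E-boxes.

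Genes of the CtBP corepressor itself moved unequally. Of 9 listed partners, 3 were higher, 2 were lower and 4 were not called, with a median of 0.23. That is a 55.6% share called beside the 33.5% of all rows and the 44.1% of rows with a mean count of at least 50. Under a Benjamini-Yekutieli adjustment, and likewise at a threshold of 0.01, 2 were higher and 1 lower. Ctbp2, 1 of the pair of CtBP genes, rose by 1.70 ± 0.23 (adjusted p = 1.24e-11, per the authors' deposited table), while its paralogue Ctbp1 stood at 0.29 ± 0.19 (adjusted p = 0.252). Rcor1, a scaffold of the CoREST complex, had 1.08 ± 0.19 (adjusted p = 2.6e-07) and Zeb2, a repressor that also recruits CtBP, 0.63 ± 0.24 (adjusted p = 0.0294, per the authors' deposited table). Ehmt2, the histone H3 methyltransferase G9a, fell by 0.84 ± 0.16 (adjusted p = 2.01e-06) and Fhl3, a LIM domain partner of KLF3, by 0.61 ± 0.23 (adjusted p = 0.0257, per the authors' deposited table).

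In the activator branch Klf6 was higher and Klf7 lower in CDH1+/THY1+ cells. Klf6, a widely expressed gene induced early in growth and injury responses, lies on chromosome 13 (5861482 to 5870394, forward strand). Its implied levels were 2390.2 normalised counts in CDH1+/THY1+ cells and 1372 in CDH1-/THY1+ cells. It had 0.80 ± 0.14 (adjusted p = 9.16e-08, per the authors' deposited table), which is 1.74-fold, with a 95% interval of 0.53 to 1.07 on the log2 scale. Klf7, known for its part in neuronal growth, lies on chromosome 1 (64029447 to 64122282, reverse strand). Its implied levels were 334 in CDH1+/THY1+ cells and 669 in CDH1-/THY1+ cells, and it fell by 1.004 ± 0.20 (adjusted p = 3.99e-06, per the authors' deposited table). That is 2.01-fold lower, with a 95% interval of 1.54 to 2.62. A noncoding gene on the opposite strand, Gm26649, shares 39.3% of the exon bases of Klf7 in GENCODE M21. Whether the authors' counting used strand is not stated in the sources used here, and reads of the 2 genes may not be separate. For Klf3 the share with the opposite-strand gene Gm20033 was 3.59%, and the other 8 members shared 0 exon bases with another gene.

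Klf4, a factor of the same branch used in reprogramming to pluripotency, is not among the 10 genes. It had 0.60 ± 0.23 (adjusted p = 0.0291, per the authors' deposited table), with implied levels of 939 in CDH1+/THY1+ cells and 621 in CDH1-/THY1+ cells. That call was lost under a Benjamini-Yekutieli adjustment (adjusted p = 0.382). Klf1, the erythroid member, had a mean normalised count of 5.50 and 0.00 ± 0.62 (adjusted p = 0.997, per the authors' deposited table). Its 95% interval of -1.22 to 1.22 on the log2 scale includes a 2-fold change in either direction. Klf2 and Klf5 were not analysed here.

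The Sin3-binding branch held genes that rose, genes that fell and genes that were not called. Klf9, induced by glucocorticoid and thyroid hormone, lies on chromosome 19 (23141226 to 23168134, forward strand). Implied levels of Klf9 were 1685 normalised counts in CDH1+/THY1+ cells and 1029 in CDH1-/THY1+ cells. It rose by 0.71 ± 0.16 (adjusted p = 6.74e-05, per the authors' deposited table), 1.64-fold with a 95% interval of 1.32 to 2.03. Klf10 and Klf11 are the paralogues known as TGF-beta-inducible early genes. Klf11, on chromosome 12 (24651274 to 24662789, forward strand), had implied levels of 759.8 in CDH1+/THY1+ cells and 1532 in CDH1-/THY1+ cells. It fell by 1.01 ± 0.21 (adjusted p = 1.55e-05, per the authors' deposited table), 2.02-fold lower with a 95% interval of 1.51 to 2.68.

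Klf10, on chromosome 15 (38291463 to 38300706, reverse strand), fell by 0.48 ± 0.18 (adjusted p = 0.0277, per the authors' deposited table). That is 1.40-fold lower (95% interval 1.09 to 1.79), with implied levels of 1959.5 in CDH1+/THY1+ cells and 2736 in CDH1-/THY1+ cells. Its call was lost under a Benjamini-Yekutieli adjustment (adjusted p = 0.363) and at a threshold of 0.01. Klf13, studied in lymphocytes and heart, lies on chromosome 7 (63886351 to 63938915, reverse strand) and had 0.03 ± 0.14 (adjusted p = 0.916, per the authors' deposited table). The 95% interval of Klf13 ran from -0.25 to 0.30, so a higher level of more than 1.23-fold or a lower one of more than 1.19-fold lies outside it. Klf16, on chromosome 10 (80567124 to 80577321, reverse strand), had -0.25 ± 0.19 (adjusted p = 0.312, per the authors' deposited table), with an interval of -0.62 to 0.12. Klf14 had a mean normalised count of 6.04 and -1.29 ± 0.62 (adjusted p = 0.0901, per the authors' deposited table), which is no call.

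Of 15 genes of the Sin3 complex, 5 were higher, 6 were lower and 4 were not called, 73.3% beside the 33.5% of all rows and the 44.1% of rows with a mean count of at least 50, with a median of -0.13. Under a Benjamini-Yekutieli adjustment 2 were higher and 2 lower. Both scaffold genes fell, Sin3a by 0.67 ± 0.16 (adjusted p = 0.000166) and Sin3b by 0.45 ± 0.15 (adjusted p = 0.0104, per the authors' deposited table). The subunit genes Sap130 and Suds3 fell by 0.66 ± 0.16 and 0.42 ± 0.13 per the authors' deposited table. Sap30, also a subunit gene, rose by 1.04 ± 0.29 (adjusted p = 0.00183), the reader gene Ing1 by 0.66 ± 0.19 and the deacetylase gene Hdac1 by 0.61 ± 0.19 per the authors' deposited table. Hdac2, the paralogue of Hdac1, went the other way at -0.40 ± 0.14 (adjusted p = 0.0126, per the authors' deposited table). So did Ing2, the paralogue of Ing1, at -0.49 ± 0.17 (adjusted p = 0.0181, per the authors' deposited table). Sin3b, Hdac2 and Ing2 were named as paralogues, after their values were seen, and the same holds for Ctbp1 beside Ctbp2.

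Among 15 genes known to respond early to TGF-beta, the signal for which Klf10 and Klf11 are named, 7 were higher and 1 was lower in CDH1+/THY1+ cells, with a median of 0.79. This 53.3% share called stands beside 33.5% over all rows and 44.1% of rows with a mean count of at least 50. Of the latter rows, 22.4% were higher and 21.7% lower. Id2, an inhibitor of basic helix-loop-helix factors, rose by 1.85 ± 0.35 (adjusted p = 2.31e-06) and the feedback inhibitor gene Pmepa1 by 0.98 ± 0.18 (adjusted p = 1.53e-06, per the authors' deposited table). Ski, a corepressor of SMAD proteins, fell by 0.92 ± 0.12 (adjusted p = 2.3e-12, per the authors' deposited table). Klf10 and Klf11 lay on the opposite side of 0 from 7 of the 8 called genes of that list, which shares Ccn2 with the fibroblast markers. Which way each listed gene responds to TGF-beta in these cells was not tested.

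Klf15, which regulates glucose and amino acid metabolism in liver and muscle, was higher in CDH1+/THY1+ cells. It lies on chromosome 6 (90462576 to 90475238, forward strand) and had a mean normalised count of 117. Its implied levels were 162 in CDH1+/THY1+ cells and 72.5 in CDH1-/THY1+ cells, with 1.16 ± 0.33 (adjusted p = 0.00191, per the authors' deposited table). That is 2.23-fold, with a 95% interval of 1.44 to 3.48. Klf17, the other gene outside the branches, had a mean normalised count of 8.67 and -0.36 ± 0.58 (adjusted p = 0.678, per the authors' deposited table).

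Klf9 and Klf15 are known glucocorticoid-inducible genes, and both were among the genes that rose. Of 15 other genes of that response, 4 were higher and 3 lower, with a median of 0.21. All 15 had mean counts above 50, and their 46.7% called was near the 44.1% of such rows. Under a Benjamini-Yekutieli adjustment and at a threshold of 0.01, 2 were higher. The kinase gene Sgk1 rose by 1.23 ± 0.16 (adjusted p = 3.3e-12), the phosphatase gene Dusp1 by 0.76 ± 0.19 (adjusted p = 0.000366) and the RNA-binding protein gene Zfp36 by 1.15 ± 0.43 (adjusted p = 0.0249, per the authors' deposited table). Tsc22d3, the glucocorticoid-induced leucine zipper, fell by 1.36 ± 0.20 (adjusted p = 2.07e-10), the clock gene Per1 by 0.76 ± 0.15 (adjusted p = 3.27e-06) and the stress gene Ddit4 by 0.55 ± 0.19 (adjusted p = 0.0156, per the authors' deposited table). Called genes of the list lay on both sides of 0.

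Klf9, Klf10 and Klf15 are also known as clock-controlled genes of mouse tissues. Of 18 circadian clock genes, 8 were lower and 1 was higher in CDH1+/THY1+ cells, with a median of -0.59. That is 50% called, beside 33.5% over all rows and 44.1% of rows with a mean count of at least 50. Of the latter rows, 21.7% were lower and 22.4% higher. Ciart, a repressor of the clock, fell by 1.37 ± 0.22 (adjusted p = 5.98e-09) and Nr1d1, the nuclear receptor REV-ERB alpha, by 1.23 ± 0.22 (adjusted p = 1.88e-07, per the authors' deposited table). Bhlhe40, the 1 clock gene that rose, had 1.27 ± 0.34 (adjusted p = 0.000946, per the authors' deposited table) and is also in the TGF-beta list. The times at which the cultures were collected are not given in the labels.

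The Klf15 promoter is shown for its clock E-boxes, the CACGTG letters bound by clock activators, which are in capitals here. It is the RefSeq window at chr6:90462326-90462625 on the forward strand of GRCm38.p6.
Klf15: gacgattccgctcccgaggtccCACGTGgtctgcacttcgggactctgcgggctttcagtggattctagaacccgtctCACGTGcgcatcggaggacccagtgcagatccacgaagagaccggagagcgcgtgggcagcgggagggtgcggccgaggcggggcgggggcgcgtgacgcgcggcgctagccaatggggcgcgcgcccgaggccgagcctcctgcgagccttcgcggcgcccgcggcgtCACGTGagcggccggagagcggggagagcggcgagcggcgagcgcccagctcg
It held 3 such boxes, the letters being the same on both strands. Of the 32817 windows, 7.15% held at least 1 and 0.0884% at least 3. The windows of Klf6 and Klf11 held 1 each and those of the other 5 matched Klf members 0. G and C made up 73.3% of the Klf15 window, and the shares over all windows were not matched for this content.

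**Figure D4:**
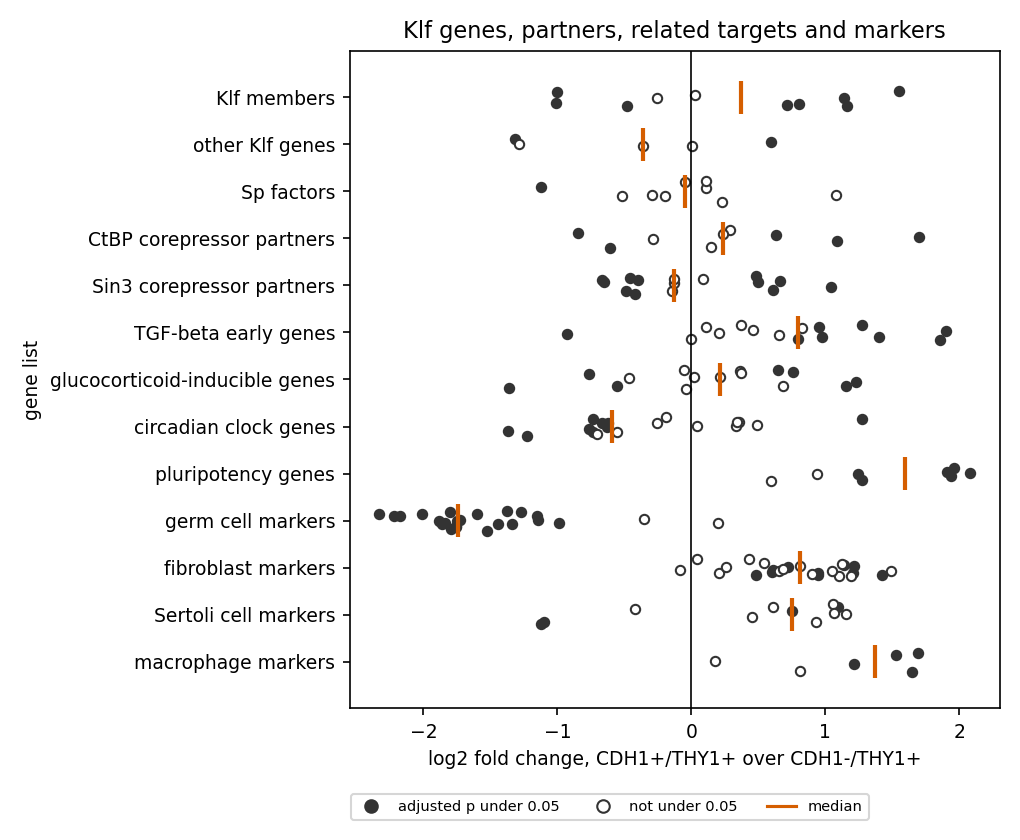
Change in CDH1+/THY1+ against CDH1-/THY1+ cells, as log2 fold change, of each gene with an adjusted p in 13 gene lists, on the horizontal axis, with the list on the vertical axis. Filled points were called, bars mark the median; the Klf members spread over both sides of 0 around a median of 0.37, while 23 of 24 germ cell markers lie below 0.

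Markers of cell types moved in the same comparison as the Klf genes. Their lists were chosen with earlier results of these data known, so the shares called are not independent of these data. Of 24 germ cell markers, 22 were lower and 0 higher (91.7% called, beside 33.5% over all rows and 44.1% of rows with a mean count of at least 50), with a median of -1.74, and none was at 0, the lowest mean normalised count being 88.8. Of 25 fibroblast markers, the feeder cell type, 10 were higher and 0 lower, with a median of 0.81 and mean normalised counts of 81.4 to 89729. That 40% called, all higher, stands beside 44.1% called and 22.4% higher among rows with a mean count of at least 50. Of these markers, 6 stayed higher under a Benjamini-Yekutieli adjustment. Implied levels of the fibroblast markers summed to 497357 normalised counts in CDH1+/THY1+ cells and 318485 in CDH1-/THY1+ cells, and those of the germ cell markers to 38681 in CDH1+/THY1+ cells and 110108 in CDH1-/THY1+ cells. Macrophage markers had 4 higher and 0 lower of 6 with an adjusted p, at mean normalised counts of 3.23 to 134, and 4 of the 10 listed were not analysed here. Their 66.7% called stands beside 33.5% over all rows, and 1 stayed higher under a Benjamini-Yekutieli adjustment and at a threshold of 0.01. Sertoli cell markers had 2 higher and 2 lower of 11, or 36.4% called, near the 33.5% over all rows. Of the Sertoli markers, 0 stayed higher under a Benjamini-Yekutieli adjustment or at 0.01, while 1 stayed lower under that adjustment and 2 at 0.01. The part of these 4 cell types in the Klf values was not tested.

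Standard errors of the 10 ranked from percentile 15 (Klf13) to percentile 84.5 (Klf11) among the 200 genes nearest in mean count, with a median of 61. Klf12 and Klf15, with the fewest reads, had the largest standard errors, 0.41 and 0.33 per the authors' deposited table. The adjustment of p ran over 19743 tests, of which 532 were not analysed here. The share called over all those tests was 35.3%.

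**Figure D5:**
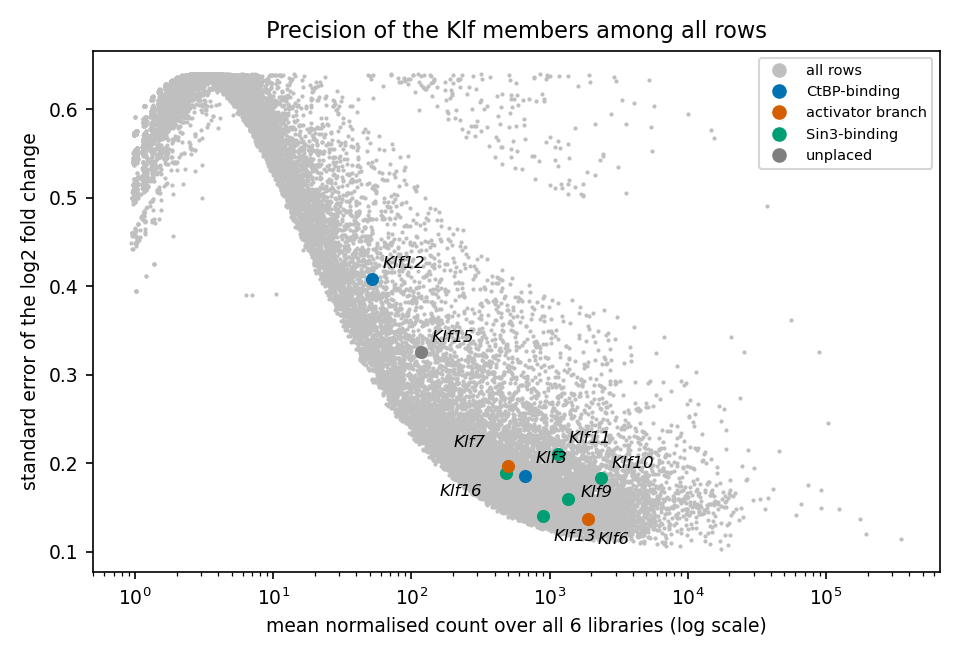
Standard error of the log2 fold change against the mean normalised count over all 6 libraries (log scale), with all rows in grey and the 10 Klf genes coloured by branch. Klf12 and Klf15 sit at mean counts of 51.8 and 117 with standard errors of 0.41 and 0.33, and the other 8 lie between 0.14 and 0.21.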

How the data were processed

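Per the submitters' processing notes, reads were handled with Trimmomatic 0.32, TopHat2 2.1.1, featureCounts (Subread 1.5.0-p3) on GRCm38.p4, and R 3.3.1 with DESeq2 1.12.3; annotation release, counting settings and model formula are not given in the sources used here. The authors' deposited mean count is a signal, read counts divided by a size factor and averaged over 6 libraries. The deposited fold change and standard error are on the log2 scale, the deposited Wald statistic is a score, and each gene has a deposited p-value and adjusted p-value.

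A call is a deposited adjusted p under 0.05. Symbols, positions and exon lengths came from GENCODE M21, matched for 22317 of 22432 rows, and promoter windows from RefSeq, matched for 8 of 10 members. Intervals of 95% are normal intervals on the deposited standard error. Standard errors peaked at 0.639 and declined again for genes with the fewest reads, as they do where fold changes are shrunken; no source states it, and shrinkage would understate changes of genes with few reads. How many tests the authors adjusted over was worked out from the ranks behind the deposited p-values and adjusted p-values. Adjustments were tested on simulated data. The named genes were all Klf and Sp genes with a row and, of every other list, up to 3 called genes in each direction by smallest adjusted p; a gene that this rule would name is not reported here, and markers of cell types are given as counts only. Members and lists were chosen with earlier results of these data known. Python 3.11.15, pandas 2.3.3, scipy 1.17.1 and matplotlib 3.10.9 were used.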

Additional observations from a re-analysis of the deposited data

How the results depend on the processing

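The count of 5 higher Klf genes stayed at 5 under Benjamini-Hochberg adjustment over all rows, Benjamini-Yekutieli adjustment and a threshold of 0.01. The count of 3 lower genes stayed at 3 under Benjamini-Hochberg adjustment. It fell to 2 under Benjamini-Yekutieli adjustment and at 0.01. A minimum mean count of 50, chosen after seeing the data, removed none of the 10 and so could not change either count. Klf10 was the member whose call was lost, under Benjamini-Yekutieli adjustment (0.363) and at 0.01. No source states that the fold changes are shrunken. An assumed shrinkage was undone with a prior SD of 1.28, taken as 2 times the largest standard error. This moved Klf12 to 1.76 and Klf15 to 1.25. The step can only enlarge a change, so it could not turn a sign. Of 96 counts recomputed for the other lists, 18 dropped by more than 1.5 times; Sin3 complex genes had 2 higher and 2 lower under Benjamini-Yekutieli adjustment. The level per kb of Klf3 moved to 128 with the longest transcript, since the length changed. No paired analysis was possible because the table holds no value per sample, and no library could be left out. Depth per library is unknown.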

Other observations

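The Sp factors, the closest relatives of the Klf genes, which share their zinc fingers and bind GC boxes, were measured as well. All 9 had a row, with 1 lower, 0 higher and 8 not called, which is 11.1% called beside 33.5% over all rows, and a median of -0.05. Sp4, an activator known from neurons, was 2.17-fold lower, with a 95% interval of 1.73 to 2.73 (adjusted p = 9.3e-10, per the authors' deposited table), with implied levels of 483 normalised counts in CDH1+/THY1+ cells and 1050 in CDH1-/THY1+ cells. Sp1 and Sp3, the widely expressed members, had -0.05 ± 0.15 and 0.11 ± 0.12 per the authors' deposited table, with 95% intervals of -0.34 to 0.24 and -0.13 to 0.34. Sp2 had -0.20 ± 0.26, Sp5 -0.52 ± 0.45 and Sp6 0.23 ± 0.38 per the authors' deposited table, at mean normalised counts of 115, 69.7 and 129. Sp7, Sp8 and Sp9 had mean normalised counts of 5.45, 4.34 and 2.82 and values of 0.11 ± 0.62, 1.08 ± 0.64 and -0.29 ± 0.64 per the authors' deposited table. Their 95% intervals ran from -1.10 to 1.32, -0.17 to 2.33 and -1.54 to 0.96.

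Of 8 pluripotency genes with an adjusted p, 6 were higher and 0 lower in CDH1+/THY1+ cells, with a median of 1.59, and 10 of the 18 listed were not analysed here. That is 75% called, beside 33.5% over all rows, of which 17.1% were higher. The T-box factor gene Tbx3 rose by 1.963 ± 0.32 (adjusted p = 1.73e-08, per the authors' deposited table), Dppa4 by 1.27 ± 0.31 and Zfp42, also called Rex1, by 1.93 ± 0.56.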
